A study of Mus musculus with 18 samples.

Results

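Induced cells collected 30 days after an adenovirus was injected into the pancreas were compared with acinar cells, 3 arrays against 3, across all 18118 gene symbols of a mouse beadchip. These 6 arrays are part of a series of 18, which fell into 6 groups of 3: induced cells taken 10, 30 or 60 days or 7 months after injection, acinar cells, and beta cells from the mouse's own islets, here called endogenous. Every group, the controls included, came from Rag1-/- mice, which lack mature T and B cells. Per the labels, the virus was placed in the dorsal pancreas, in its splenic lobe, and later endogenous islets were removed, the remaining acinar fraction was made into single cells, and cells positive for the red protein Cherry were sorted. Which genes the virus carried, how old the mice were and of which sex, and how acinar and beta cells were purified is not stated in the labels. Nor do they state that replicate arrays stand for different mice, so a p-value here reflects the variation among arrays, and that variation may be technical.

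Acinar cells make and store digestive enzymes and release them into the gut through the pancreatic duct. Beta cells lie in the islets, sense glucose through its metabolism and an ATP-sensitive potassium channel, and secrete insulin from dense granules that also hold chromogranins and the enzymes that cut proinsulin. In the embryo both arise from one progenitor, and Neurog3, Pdx1 and Mafa, transcription factors of the islet lineage, are known to turn acinar cells towards beta cells when they are introduced together. The comparison asks how far cells induced in place had left the acinar state and taken on that of a beta cell at day 30.

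The day 30 arrays detected more genes than the acinar arrays, 7644 to 7745 against 5990 to 6390 at a detection p-value under 0.01. Their signal was also spread over more genes, since the 50 brightest held 12.5 to 12.9% of it against 25.3 to 27.8% on the acinar arrays. Of 8942 genes tested, 7094 (79.3%) differed at an adjusted p under 0.05 with limma (a linear model fitted to all 18 arrays, Benjamini-Hochberg adjustment), 3542 (39.6%) higher and 3552 (39.7%) lower at day 30. Past 2-fold there were 3436 (38.4%), with 19.5% of genes higher and 18.9% lower. The 3 day 30 arrays lay all above the 3 acinar arrays for 42.3% of tested genes and all below for 42.1%. Quantile normalization, the main setting, sets the same distribution on every array and so balances rises and falls. With each array scaled to a common median, 77.9% of the called genes were higher, and with the deposited values as they stand 93.6% were, with the median of all genes moved from 0.00 to 0.68 and 0.93 on the log2 scale. Both of these scalings move the median of all genes up relative to quantile normalization, and fewer genes were called lower. The shift was not the same for every gene, and bright genes could move down. Of 22 digestive enzymes 7 were called lower with quantile normalization, but 21 with median scaling and 15 in the deposited values. In all, 3444 genes (38.5%) were called higher and 495 (5.54%) lower under all 3 scalings, and counts "under all 3 scalings" are given below with this share as their background.

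Values are normalized log2 intensities, and a difference is the day 30 mean minus the acinar mean with its standard error (SE, n = 3 arrays a group). An offset of 16 added before taking the logarithm makes differences of dim genes too small. The SE comes from the spread within all 6 groups, so it can exceed the spread between the 6 arrays shown. Where a gene was not measured above background on 1 or more arrays of its dimmer side, only a lower limit can be given, written as at least N-fold. For 5 genes whose own values there lay above the detection level (Trib3, Cdkn1a, Hes6, Irf1 and P2ry14) that limit equals the fitted difference, and their values are given instead. Such limits hold for the background correction used here. When limma inferred the negative controls from all detection p-values (limma background), the fitted difference lay under the limit for 61 of 62 genes described here, with Ins1 at 160.3-fold and Ucn3 at 6.90-fold. Gene lists are described by the number of members called and by their median difference, the latter also with such members at their limit ("at bounds") and, where it shrank by more than 1.5 times or turned, with limma background. In all, 637 of the 832 listed genes on the array passed the filter on dim genes. RNA was taken from many cells at once, so fewer cells with a transcript and less transcript per cell cannot be told apart.

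The 4 genes chosen to mark the comparison showed both insulin and Ucn3 gained, and both acinar genes reduced but still present. Ins1, an insulin gene, stood at 4.35, 4.34 and 4.24 on the 3 acinar arrays and at 14.16, 14.17 and 14.14 on the 3 day 30 arrays. The acinar signals of 44.9, 43.0 and 38.5 lay under the mean of the negative controls of their arrays, so that Ins1 was at least 267-fold higher at day 30 (limma, adjusted p = 5.21e-19). Ucn3, a peptide that marks mature beta cells, stood at 5.15, 4.59 and 4.55 in acinar cells and at 9.95, 9.77 and 9.86 at day 30, at least 13.6-fold higher (adjusted p = 6.67e-14). Both genes were unmeasured on all acinar arrays and had narrow ranges at day 30. Aqp12, a water channel of acinar cells, stood at 11.72, 11.70 and 11.64 and fell to 8.50, 8.51 and 8.44, a difference of -3.20 ± 0.077 (adjusted p = 9.14e-15). Tead2, a DNA-binding partner of YAP in the Hippo pathway, stood at 12.28, 12.41 and 12.25 and fell to 7.99, 7.84 and 7.73, a difference of -4.46 ± 0.16 (adjusted p = 9.09e-13). No array of one group overlapped the other for these 4 genes. This also held for most tested genes, with 42.3% all above and 42.1% all below at day 30. Aqp12 and Tead2 were still measured on all day 30 arrays, and in endogenous beta cells they stood at 4.60 ± 0.091 and 4.68 ± 0.086 (mean ± SD, n = 3).

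**Figure D1:**
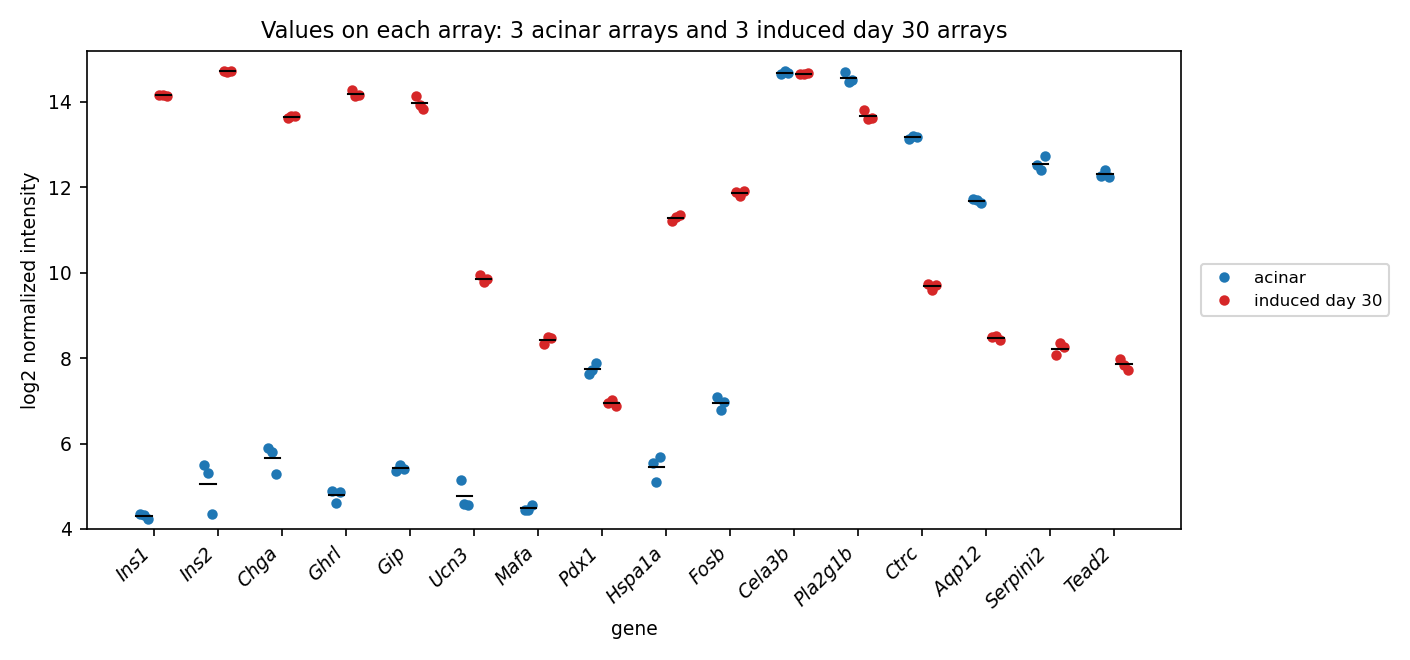
Normalized log2 intensity (vertical axis) of 16 genes (horizontal axis) on each of the 3 acinar arrays (blue) and the 3 induced day 30 arrays (red), with black lines for group means. Replicates lie close together for most genes, while some dim genes spread on the acinar arrays, such as Ins2 from 4.35 to 5.50. Ins1 and Ghrl stand near 14 at day 30 and under 5 in acinar cells, and the values of Cela3b overlap between the groups.

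Promoters of Ins1 and of Chgb, which encodes chromogranin B of the hormone granules, are shown because these genes went from unmeasured to very bright. Each run is the 250 bases before the annotated start, from RefSeq on GRCm38.p6, 5′ to 3′. Capitals in Ins1 mark GCCATCTG, an E-box core known to be bound by NEUROD1 with its partners, searched on both strands, which begins 86 bases before the start. Capitals in Chgb mark TGACGTCA, the cyclic AMP response element, which begins 72 bases before the start.
Ins1 (chr19:52264047-52264296, + strand): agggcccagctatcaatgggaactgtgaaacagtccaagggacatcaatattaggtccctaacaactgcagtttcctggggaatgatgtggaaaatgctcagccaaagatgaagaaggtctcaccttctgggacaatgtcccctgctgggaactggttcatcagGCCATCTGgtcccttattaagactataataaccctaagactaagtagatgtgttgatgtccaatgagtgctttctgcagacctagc
Chgb (chr2:132781392-132781641, + strand): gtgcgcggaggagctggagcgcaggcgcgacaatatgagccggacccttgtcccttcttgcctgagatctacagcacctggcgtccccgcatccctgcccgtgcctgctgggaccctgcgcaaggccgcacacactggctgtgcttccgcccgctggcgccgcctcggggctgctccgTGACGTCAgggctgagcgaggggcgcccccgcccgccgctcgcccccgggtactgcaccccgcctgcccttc
GCCATCTG occurs in 1.11% and TGACGTCA in 1.55% of the 32851 mouse promoters of the same length in that table. A match describes the sequence and does not show that a factor was bound in these cells.

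Insulin, granule and prohormone processing genes were higher at day 30 almost throughout. Of 22 tested, 20 were higher and 2 lower, with a median of 3.21 (2.72 at bounds, 2.10 with limma background) against 0.00 over all tested genes, and 20 were higher under all 3 scalings. Ins2, the other insulin gene, stood at 5.50, 5.32 and 4.35 on the acinar arrays and at 14.72, 14.70 and 14.72 at day 30, at least 392-fold higher (adjusted p = 2.29e-15). It was measured on 2 of the 3 acinar arrays, which differed from each other by more than the day 30 arrays did. Chga, chromogranin A, went from 5.89, 5.81 and 5.29 to 13.63, 13.66 and 13.66, at least 188-fold (adjusted p = 1.39e-16), and Chgb from 5.58, 4.80 and 4.76 to 13.01, 13.11 and 13.08, at least 125-fold (adjusted p = 2.31e-15). Neither was measured on any acinar array.

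Of the enzymes that process prohormones, Pcsk2, a convertase that cuts proinsulin, went from 5.95, 5.72 and 6.17 to 12.91, 12.89 and 12.89, a difference of 6.95 ± 0.10 (adjusted p = 7.99e-17). It had the largest rise among genes measured on all 6 arrays with the background correction used here. On acinar arrays 1 and 2, however, Pcsk2 lay under the level at which genes reach the detection threshold (6.19). Resp18, an endoplasmic reticulum protein of endocrine cells, followed with 6.84 ± 0.14, from 6.71, 6.56 and 6.71 to 13.45, 13.55 and 13.51. With limma background the order of these genes turned, with rises of 5.87 for Pcsk2 and 6.35 for Resp18. Scg5, the chaperone of that convertase, was at least 70.2-fold and Pcsk1n, an inhibitor of the related convertase PCSK1, at least 19.8-fold higher, and Scg3, a granule protein, at least 28.6-fold. Iapp, the peptide amylin that is co-secreted with insulin, rose by 2.76 ± 0.20, from 7.00, 6.99 and 7.50 to 9.51, 10.13 and 10.13, with day 30 array 1 under the other two. Slc30a8, the zinc transporter of insulin granules, was at least 1.88-fold higher. Scg2, secretogranin II, went the other way: it stood at 7.35, 7.55 and 7.72 in acinar cells, was measured on no day 30 array (4.67, 4.85 and 4.95), and was at least 4.53-fold lower (adjusted p = 4.81e-10), whereas it reached 14.36 ± 0.029 in endogenous beta cells. Rab3d, a GTPase of secretory granules known mainly from exocrine cells, was lower by 0.59 with quantile normalization but higher by 0.44 and 0.90 under the other scalings.

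**Figure D2:**
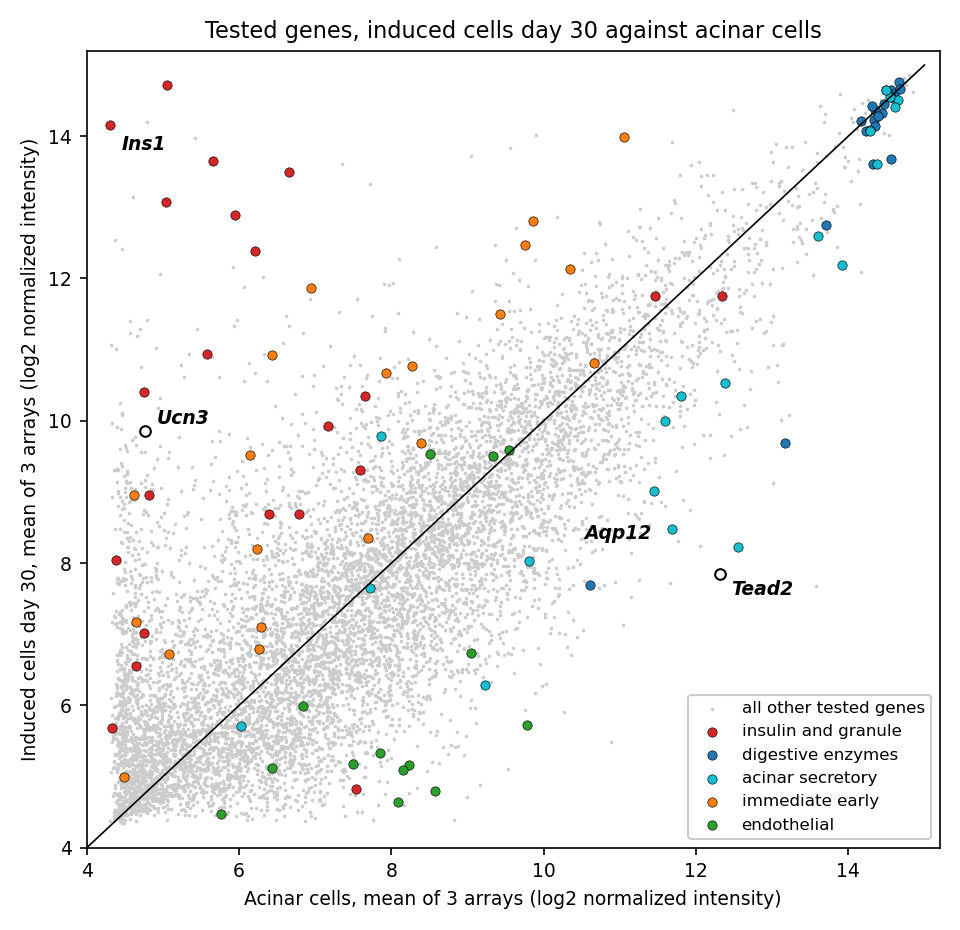
Each point is a tested gene, with its mean log2 normalized intensity over 3 acinar arrays (horizontal) and 3 induced day 30 arrays (vertical), and the line marks equal values. Cyan marks acinar secretory genes, orange immediate early genes and grey all others. Insulin and granule genes (red) lie mostly far above the line, digestive enzymes (dark blue) crowd the upper right corner on or just under it, and endothelial genes (green) lie mostly below it.

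Ghrl and Gip, peptides that stood at or near background in endogenous beta cells, were bright in the induced cells. Ghrl, ghrelin, the peptide of epsilon cells and the stomach, stood at 4.89, 4.61 and 4.87 on the acinar arrays and 14.28, 14.13 and 14.17 at day 30, at least 273-fold higher (adjusted p = 2.01e-18). Gip, the incretin of intestinal K cells, stood at 5.36, 5.51 and 5.41 and 14.14, 13.93 and 13.83, at least 234-fold higher (adjusted p = 1.92e-11). Neither was measured on acinar arrays, and in endogenous beta cells they stood at 4.96 ± 0.14 and 5.23 ± 0.13, Ghrl being measured on 1 of those 3 arrays and Gip on none, so that day 30 was at least 415-fold and 355-fold higher (adjusted p = 6.62e-19 and 1.97e-11). Sct, secretin, was at least 8.14-fold higher than in acinar cells, and Pyy, peptide YY of gut L cells and of islets, rose by 2.75 ± 0.10. Unlike Ghrl and Gip, Pyy was bright in endogenous beta cells, at 13.75 ± 0.049, and day 30 differed from them by -1.93 ± 0.10 (adjusted p = 1.21e-10). Over 20 genes of endocrine progenitors and gut endocrine cells 17 were higher, 1 lower and 2 not called (median 3.07, 1.98 at bounds, 1.05 with limma background).

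The hormones of other islet cells gave a mixed picture. Of 7 tested genes 4 were higher and 3 lower (median 0.85). Ttr, transthyretin, which alpha cells make in large amounts, rose by 4.27 ± 0.089, from 9.58, 9.58 and 9.52 to 13.83, 13.80 and 13.88. Sst, somatostatin of delta cells, rose by 0.85 ± 0.25 (adjusted p = 0.00569), from 9.99, 9.99 and 10.00 to 10.85, 10.91 and 10.78. Gcg, glucagon of alpha cells, was bright on the acinar arrays at 12.11, 12.07 and 12.13 and lower by 0.84 at day 30 at 11.23, 11.18 and 11.37 (adjusted p = 0.0452), but higher by 0.23 with median scaling and 0.70 in the deposited values. Ppy, pancreatic polypeptide, fell by 1.88 ± 0.43 (adjusted p = 8.90e-04), and by 0.88 and 0.20 under the other scalings. The acinar arrays thus held Gcg, Sst, Pyy and Ppy signal while Ins1 was unmeasured on them, and how much RNA of other islet cells they held was not tested.

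Transcription factors of the islet were mostly unmeasured in acinar cells and present at day 30. Of 14 tested (18 on the array) 12 were higher and 2 lower (median 3.52, 2.07 at bounds, 1.20 with limma background), all 12 rises under all 3 scalings. Insm1, a zinc finger repressor of endocrine differentiation, was at least 30.4-fold higher, from 5.20, 4.90 and 4.65 to 11.15, 10.98 and 10.95 (adjusted p = 4.39e-15). Rfx6, required to form islet cells, was at least 16.1-fold, Nkx2-2, which keeps beta cell identity, at least 9.50-fold, and Myt1, an endocrine zinc finger factor, at least 7.10-fold higher. Pax4, needed for beta and delta cells, was at least 4.77-fold, Nkx6-1, a factor of mature beta cells, at least 3.70-fold and Neurod1, an activator of the insulin gene, at least 3.28-fold higher. Mlxipl, which answers to glucose, rose by 3.80 ± 0.23, and Hnf4a, a regulator shared with liver and gut, by 1.77 ± 0.15.

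The 3 factors best known for acinar to beta conversion did not move alike. Mafa, which drives insulin in mature beta cells, stood at 4.45, 4.45 and 4.55 in acinar cells and 8.34, 8.49 and 8.48 at day 30, at least 5.04-fold higher (adjusted p = 3.30e-13). Day 30 was also above endogenous beta cells, where Mafa stood at 5.30 ± 0.056 (adjusted p = 6.05e-12). That beta cell level lay under the one at which genes reach the detection threshold on those arrays (5.46 to 5.53), so no size is given. Neurog3, which starts endocrine differentiation, stood at 4.50, 4.46 and 4.50 and 6.55, 6.34 and 6.50, at least 1.29-fold higher (adjusted p = 2.37e-04), a call that was lost with limma background (difference 0.23, adjusted p = 0.21). Pdx1, a factor of pancreatic progenitors and beta cells, stood at 7.63, 7.73 and 7.88 in acinar cells and 6.95, 7.03 and 6.88 at day 30, lower by 0.79 with quantile normalization (adjusted p = 1.96e-06) and higher by 0.17 and 0.57 under the other scalings. In endogenous beta cells Pdx1 stood at 9.93 ± 0.046, above day 30. An array probe may read transcripts of a virus as well as of the cell, and which source gave these signals was not tested. Isl1, a factor of all adult islet cells, was measured on all acinar and on no day 30 arrays, at least 1.76-fold lower. It was not lower in the deposited values (0.05), and the call was lost with limma background (-0.14, adjusted p = 0.0512). In endogenous beta cells Isl1 reached 11.91 ± 0.074.

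Genes for sensing glucose and releasing granules were higher at day 30 in 16 of 19 cases, 16 of them under all 3 scalings, with 2 lower and a median of 1.76 (1.57 at bounds, 0.88 with limma background). Abcc8, the sulfonylurea receptor of the potassium channel, was at least 11-fold higher, from 4.91, 4.63 and 4.61 to 9.59, 9.61 and 9.48 (adjusted p = 1.36e-14). Slc2a2, the glucose transporter GLUT2, was at least 5.37-fold higher (adjusted p = 2.11e-12). G6pc2, an islet glucose-6-phosphatase, rose by 4.77 ± 0.10, from 6.94, 7.13 and 6.74 to 11.67, 11.76 and 11.70. For release, Syt13, a synaptotagmin, was at least 9.60-fold higher, and Vamp2, a vesicle SNARE protein, rose by 3.86 ± 0.10. Trpm5, a cation channel, was at least 3.76-fold higher. Glp1r and Ffar1, receptors for an incretin and for fatty acids, were measured on none of the 6 arrays.

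Maturity genes of beta cells were higher in 10 of 13 cases, with 1, the unmeasured Glp1r, called lower and 2 not called (median 3.24, 1.89 at bounds, 0.84 with limma background), several of them shared with the lists above. Beside Ucn3 and G6pc2, Gjd2, the connexin that couples beta cells, was at least 3.66-fold higher (adjusted p = 1.91e-09). Of 22 genes shared by neurons and islets on the array, the 13 tested gave 12 higher and 1 lower (median 2.88, 1.68 at bounds, 0.75 with limma background). Gad1, which makes the transmitter GABA, was at least 14-fold higher, from 4.39, 4.35 and 4.47 to 9.85, 9.99 and 9.89, and Nefm, a neurofilament protein, at least 9.26-fold. Syp, synaptophysin of secretory vesicles, rose by 4.39 ± 0.10, while Stmn2, a microtubule regulator of neurons, was at least 1.59-fold lower and measured on no day 30 array, a call lost in the deposited values and with limma background.

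The digestive enzymes were among the brightest genes in both groups. None of 22 tested was higher, 7 were lower and 15 were not called (median -0.03), and 7 were lower under all 3 scalings. With median scaling 21 of them were lower (median -0.71) and in the deposited values 15 (median -0.23), so that small falls of the remaining enzymes depended on the scaling. Cela3b, an elastase, stood at 14.65, 14.72 and 14.68 in acinar cells and 14.65, 14.66 and 14.68 at day 30 (adjusted p = 0.717). Ctrb1, chymotrypsinogen B, stood at 14.60, 14.60 and 14.52 and 14.59, 14.54 and 14.51 (adjusted p = 0.733), and Pnlip, pancreatic lipase, at 14.31, 14.33 and 14.31 and 14.40, 14.45 and 14.43 (adjusted p = 0.168). The groups overlapped for Cela3b and Ctrb1, which were lower by 0.69 and 0.71 with median scaling and by 0.21 and 0.24 in the deposited values, and Pnlip was lower by 0.58 and 0.11. The deposited signal of Cela3b was 30826 to 31851 on acinar and 26648 to 27574 on day 30 arrays, whose highest signals of any gene were 34049 to 36736 and 28561 to 30298. Quantile normalization gives genes of the same top ranks the same value, and the part of saturation near this ceiling was not tested. Over all 23 enzymes on the array the summed deposited signal was 533882 to 552142 on acinar and 436065 to 461411 on day 30 arrays. In endogenous beta cells these enzymes were much dimmer, with Cela3b at 9.70 ± 0.064 and Ctrb1 at 8.92 ± 0.18, day 30 being higher by 4.96 ± 0.053 and 5.62 ± 0.075 (adjusted p = 6.26e-19 and 3.31e-18).

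Some enzymes fell far more than others. Ctrc, chymotrypsin C, which activates and degrades trypsinogen, stood at 13.13, 13.21 and 13.19 and fell to 9.75, 9.60 and 9.71, a difference of -3.49 ± 0.17 (adjusted p = 2.24e-11). Amy1, an amylase, fell by 2.91 ± 0.25, from 10.60, 10.63 and 10.60 to 7.75, 7.63 and 7.71 (adjusted p = 2.69e-08). Pla2g1b, the secreted phospholipase, fell by 0.88 ± 0.087 and Pnliprp2, a galactolipase, by 0.71 ± 0.091. Each of these falls was also seen under the other scalings, where that of Ctrc was 3.06 and 2.53 in size and that of Amy1 1.84 and 1.20.

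Other acinar secretory proteins were lower in 14 of 20 cases, 11 of them under all 3 scalings, with 1 higher and 5 not called (median -0.88). Serpini2, a serine protease inhibitor of the exocrine pancreas, stood at 12.52, 12.40 and 12.72 and fell to 8.08, 8.34 and 8.26, a difference of -4.32 ± 0.26 (adjusted p = 3.47e-10). Erp27, a redox-inactive chaperone of the endoplasmic reticulum, fell by 1.73 ± 0.12, and Cuzd1, a zymogen granule membrane protein, by 0.76 ± 0.12. Gp2, the main glycoprotein of that membrane, stood at 14.66, 14.63 and 14.65 and 14.50, 14.48 and 14.55 (adjusted p = 0.0674), and Zg16, a granule lectin, at 14.50, 14.56 and 14.56 and 14.54, 14.57 and 14.54 (adjusted p = 0.914). They were lower by 0.82 and 0.69 with median scaling and by 0.34 and 0.21 in the deposited values. Aqp8, a water channel, was the 1 member higher, by 1.92 ± 0.30. Of the 6 regenerating proteins, 3 were lower and 3 not called (median -0.34): Reg3g, an antibacterial lectin, fell by 1.49 ± 0.33 and Reg3d by 1.11 ± 0.10, while Reg1 stood at 14.72, 14.75 and 14.72 and 14.75, 14.81 and 14.87 and was lower by 0.66 and 0.18 under the other scalings.

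Acinar transcription factors fell with quantile normalization in 6 of 8 cases, but 1 did so under all 3 scalings, with 1 higher (median -0.84, -0.25 with limma background, and -0.22 and 0.29 under the other scalings). Bhlha15 (MIST1), which organises the secretory apparatus, stood at 11.46, 11.48 and 11.47 and 9.47, 9.39 and 9.42, a difference of -2.04 ± 0.087 (adjusted p = 6.54e-12), and -0.99 and -0.48 under the other scalings. Ptf1a, the factor that sets acinar fate, stood at 11.02, 11.08 and 11.09 and 9.26, 9.26 and 9.32, a difference of -1.79 ± 0.20 (adjusted p = 5.99e-07), and -0.66 and -0.16 under the other scalings, the last not called. Both were measured on every day 30 array. Nr5a2, a nuclear receptor that supports acinar genes, stood at 6.55, 6.56 and 6.38 and 4.81, 4.77 and 4.77. Its day 30 level lay under that at which genes reach the detection threshold, its difference shrank to -0.21 with limma background, and it was not called in the deposited values, so no size is given. Creb3l2, a secretory pathway factor, was at least 2.98-fold higher.

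The machinery that loads proteins into the endoplasmic reticulum gave 9 higher and 17 lower of 30 (median -0.49, and 0.20 and 0.65 under the other scalings), with 9 higher and 5 lower under all 3 scalings. Fkbp11, a prolyl isomerase of secretory cells, fell by 2.28 ± 0.088, from 13.07, 13.07 and 13.05 to 10.75, 10.77 and 10.83, and Spcs3, a signal peptidase subunit, by 2.01 ± 0.092. Sec11a, the catalytic subunit of that peptidase, rose by 1.21 ± 0.11. Aminoacyl-tRNA synthetases, which charge tRNAs, gave 5 higher and 13 lower of 20, with 4 and 4 under all 3 scalings (median -0.84, -0.05 at bounds, -0.37 with limma background, and 0.46 in the deposited values). Mars1, for methionine, fell by 2.79 ± 0.082 and Wars, for tryptophan, by 2.54 ± 0.11. Gars, for glycine, rose by 0.50 ± 0.11.

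In amino acid and creatine metabolism, genes that make creatine were lower and genes that use it higher. Of 24 genes 9 were higher and 13 lower, with 9 and 9 under all 3 scalings (median -0.35, -0.17 with limma background, and 0.58 and 0.85 under the other scalings). Gatm and Gamt, the enzymes that make creatine, fell by 2.94 ± 0.12 and 1.85 ± 0.11, while Ckb and Ckmt1, kinases that use it, rose by 3.92 ± 0.26 and 2.56 ± 0.10. Ckb stood at 8.02, 8.01 and 8.02 in acinar cells and at 11.93, 11.94 and 11.94 at day 30. Psat1, of serine synthesis, fell by 3.09 ± 0.18 while Phgdh, which starts that pathway, was at least 3.57-fold higher. Aldh18a1, of proline synthesis, fell by 2.84 ± 0.053 and Cbs, of the route from homocysteine to cysteine, by 2.58 ± 0.10.

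Immediate early genes, which cells induce within minutes of a stimulus, were higher in 19 of 20 tested cases (27 on the array) with 1 not called (median 2.28, 1.98 at bounds), 18 of them under all 3 scalings. Fosb stood at 7.09, 6.78 and 6.97 on the acinar arrays and at 11.89, 11.81 and 11.92 at day 30, a rise of 4.93 ± 0.09 (adjusted p = 5.57e-16). Atf3, a stress-induced repressor, rose by 4.50 ± 0.12, Dusp1, a phosphatase of MAP kinases, by 2.95 ± 0.055, Egr1 by 2.94 ± 0.074 and Fos by 2.72 ± 0.064. Arc, best known from active neurons, was at least 7.27-fold higher. The exception was Junb, at 10.69, 10.64 and 10.66 and 10.87, 10.80 and 10.78 (adjusted p = 0.0886), with differences of 1.38 and 1.80 under the other scalings. Day 30 cells were digested and sorted, and whether the acinar cells went through a sort is not given in the labels, so handling and cell state cannot be told apart. Endogenous beta cells stood at 6.81 ± 0.062 for Fosb and 13.01 ± 0.077 for Egr1.

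Heat shock genes were higher in 12 of 19 cases, all 12 under all 3 scalings, with 3 lower and 4 not called (median 1.15, 0.72 at bounds, 0.76 with limma background). Hspa1a, the inducible HSP70, stood at 5.55, 5.11 and 5.69 in acinar cells and 11.21, 11.32 and 11.34 at day 30, at least 36.5-fold higher (adjusted p = 7.02e-16). Hspb1, a small heat shock protein, rose by 3.11 ± 0.071, from 9.49, 9.32 and 9.27 to 12.37, 12.44 and 12.59 (adjusted p = 6.32e-15). Hsph1 and Dnajb1, partners of HSP70, rose by 3.34 ± 0.18 and 3.07 ± 0.083, and Hspa8, the constitutive HSP70, by 1.31 ± 0.089. Bag3, a co-chaperone, stood at 10.54, 10.53 and 10.45 and 10.53, 10.39 and 10.34 (adjusted p = 0.655). It was higher by 1.13 and 1.56 under the other scalings (adjusted p = 7.08e-06 and 4.41e-08). The promoters of Hspa1a and Hspb1 are shown because these genes rose and carry a core of the heat shock element, GAANNTTC, in capitals, again as the 250 bases before the start, RefSeq on GRCm38.p6, 5′ to 3′.
Hspa1a (chr17:34972157-34972406, - strand): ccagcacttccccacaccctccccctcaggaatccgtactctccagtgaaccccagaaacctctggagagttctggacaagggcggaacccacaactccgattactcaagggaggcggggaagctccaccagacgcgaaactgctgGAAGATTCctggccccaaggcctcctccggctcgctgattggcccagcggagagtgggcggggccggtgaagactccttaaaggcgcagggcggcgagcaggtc
Hspb1 (chr5:135887669-135887918, + strand): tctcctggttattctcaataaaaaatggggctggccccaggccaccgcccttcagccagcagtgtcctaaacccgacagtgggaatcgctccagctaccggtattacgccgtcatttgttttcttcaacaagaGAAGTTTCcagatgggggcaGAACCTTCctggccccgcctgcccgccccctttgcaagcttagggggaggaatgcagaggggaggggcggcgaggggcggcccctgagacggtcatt
The match in Hspa1a begins 104 bases and those in Hspb1 begin 117 and 97 bases before the start. Of 22 heat shock genes on the array 17 had a promoter in the table and 7 of those held GAANNTTC on either strand, against 6.69% of all promoters of that length. The 7 are counted by gene, over every promoter a gene has there, and the share is by promoter, so they are not like measures.

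The unfolded protein response, which answers to misfolded protein in the endoplasmic reticulum, gave 10 higher, 4 lower and 3 not called of 17 (median 0.74), all 10 rises under all 3 scalings. Ddit3 (CHOP), its death-linked factor, rose by 3.65 ± 0.29, from 6.95, 6.97 and 7.05 to 10.67, 10.62 and 10.63, and Ppp1r15a, which restarts translation, by 2.47 ± 0.12. Trib3, a target of CHOP, stood at 6.31, 6.29 and 6.32 in acinar cells, where 2 arrays measured it, and at 8.50, 8.51 and 8.33, a rise of 2.14 ± 0.16. With limma background the rise was 1.05. Hspa5 (BiP), the main chaperone, stood at 7.27, 7.24 and 8.02 and 7.67, 8.15 and 8.06 (adjusted p = 0.0715), with overlapping groups. It was higher by 1.40 and 1.56 under the other scalings (adjusted p = 3.06e-05 and 1.16e-07). Asns, a target of the same branch as Ddit3, was lower by 1.44 and by 0.51 with median scaling, and in the deposited values its difference of -0.034 was not called (adjusted p = 0.707). Xbp1, a factor of another branch, was lower by 0.29 and 0.09 with quantile and median scaling but higher by 0.38 in the deposited values.

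Targets of p53 and other growth arrest genes gave 11 higher and 7 lower of 20 (median 0.53, 0.34 with limma background), with 11 and 2 under all 3 scalings. Plk3, a stress kinase, stood at 6.36, 6.31 and 6.28 and rose to between 11.94 and 12.10, by 5.69 ± 0.13 (adjusted p = 6.66e-15), and Gadd45a, a growth arrest gene, rose by 4.68 ± 0.12. Cdkn1a (p21), an inhibitor of cyclin-dependent kinases, stood at 7.42, 7.53 and 7.59 in acinar cells, where 2 arrays measured it, and at 10.90, 10.89 and 10.92, higher by 3.39 ± 0.085. Cdkn1c (p57), another, rose by 3.43 ± 0.18. Plk2, also a target, fell by 2.65 ± 0.11. Fas, another, was lower by 1.83, though by 0.93 and 0.16 under the other scalings, the last not called. Cell cycle genes, of which 15 of 28 on the array passed the filter, were lower in 13 cases, 4 of them under all 3 scalings, and higher in 2 (median -0.90, -0.31 with limma background, and 0.05 and 0.48 under the other scalings). Birc5, of dividing cells, was measured on all acinar and no day 30 arrays and was at least 4.03-fold lower, Rrm2, of DNA precursor synthesis, at least 2.36-fold, whereas Ccnd2, a cyclin that beta cells depend on, rose by 1.29 ± 0.067.

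Antioxidant genes moved both ways, 7 higher and 11 lower of 21 (median -0.37, -0.10 with limma background, and 0.57 and 0.88 under the other scalings), with 7 and 3 under all 3 scalings. Gpx3, a secreted glutathione peroxidase, rose by 4.18 ± 0.067, from 8.14, 8.12 and 8.05 to 12.31, 12.28 and 12.24, Srxn1, sulfiredoxin, was at least 7.90-fold higher and Nqo1, a quinone reductase, at least 2.46-fold, while Cat, catalase, fell by 2.10 ± 0.10 and Prdx4, a peroxiredoxin of the secretory pathway, by 1.41 ± 0.083. In glycolysis 13 of 15 genes were higher, 12 of them under all 3 scalings, and 1 lower (median 1.26, 0.68 with limma background). Slc2a1, the glucose transporter GLUT1, rose by 3.19 ± 0.16 and Pkm, pyruvate kinase, by 1.82 ± 0.11, whereas Ldha, lactate dehydrogenase, which beta cells keep low, fell by 1.98 ± 0.28, from 11.46, 11.46 and 11.45 to 9.50, 9.48 and 9.45 (adjusted p = 7.38e-06), and by 0.92 and 0.41 under the other scalings, the last not called. Cholesterol genes gave 12 higher and 2 lower of 18 (median 0.48, 0.09 at bounds, 0.08 with limma background), led by Msmo1, a sterol oxidase, with 2.20 ± 0.14.

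Housekeeping machineries depended on the scaling. Respiratory chain genes were lower in 23 of 37 cases with quantile normalization and 0 under all 3 scalings, and their median of -0.32 turned to 0.75 and 1.19. Cytosolic ribosomal proteins were lower in 24 of 36 cases, 5 of them under all 3, with medians of -0.30, -0.26 and 0.22. Proteasome subunits gave 14 higher, all under all 3 scalings, and 9 lower, none of them under all 3, of 25 (median 0.26). Commonly used reference genes differed as well, with 7 of 10 higher and 1 lower (median 0.30). Gapdh, of glycolysis, rose by 0.65 ± 0.062 and Actb, beta-actin, by 0.35 ± 0.07, and Tbp, a general transcription factor, stood at 7.52, 7.22 and 7.26 and 7.39, 7.35 and 7.24 (adjusted p = 0.962) and was higher by 0.90 and 1.12 under the other scalings.

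**Figure D3:**
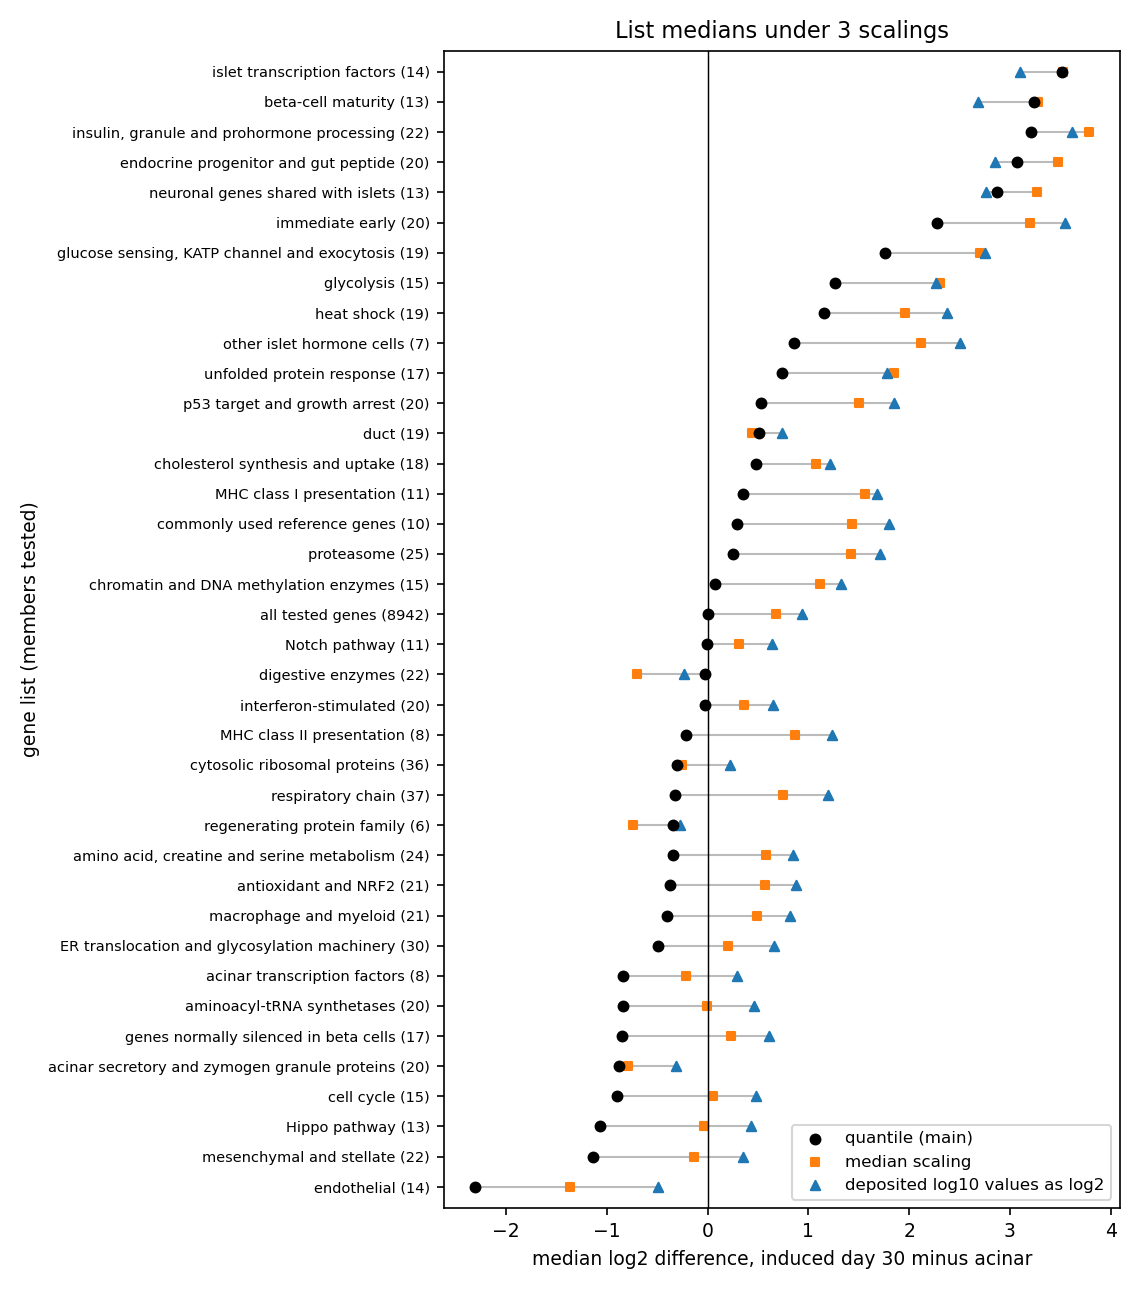
Median log2 difference (horizontal axis, induced day 30 minus acinar) of each gene list with at least 5 tested members (vertical axis, number tested in brackets), with quantile normalization (black circles), median scaling (orange squares) and the deposited values (blue triangles). Islet, granule, immediate early and heat shock lists stay right of 0 under each scaling, the endothelial, acinar secretory, digestive enzyme and regenerating protein lists stay left of 0, and lists such as the respiratory chain and the Hippo pathway cross it.

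Among pathways that steer pancreatic fate, Hippo genes, of which 13 of 21 passed the filter, were lower in 9 cases and higher in 1, but 2, Tead2 and Yap1, were lower under all 3 scalings (median -1.07, -0.25 with limma background, and -0.03 and 0.43). Yap1, the coactivator that TEAD proteins bind and that mature endocrine cells lack, stood at 8.58, 8.58 and 8.62 and fell to 5.62, 5.69 and 5.60, a difference of -2.96 ± 0.10 (adjusted p = 6.04e-13), and -1.96 and -0.93 under the other scalings. Ccn2, a target of YAP, was lower by 1.15 and 0.07 but higher by 0.40 in the deposited values, and Ccn1, another, rose by 0.78 ± 0.15. Notch genes gave 3 higher and 5 lower of 11 (median -0.01, and 0.32 and 0.64 under the other scalings), none lower under all 3 scalings. Hes6, a Notch antagonist, stood at 6.54, 6.46 and 6.49 on the acinar arrays, none of which measured it, and at 8.27, 8.22 and 8.15, higher by 1.72 ± 0.13 and, with limma background, by 0.81. Hes1, the classical target, was lower by 0.64 with quantile normalization and higher by 0.32 and 0.68 otherwise.

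Duct genes split evenly, 8 higher and 8 lower of 19 (median 0.51, 0.00 at bounds, 0.06 with limma background), 7 and 2 under all 3 scalings. Over all tested genes 39.6% were higher and 39.7% lower. Cldn4, a claudin of tight junctions, stood at 7.34, 7.43 and 7.29 and rose to 13.65, 13.57 and 13.61, by 6.26 ± 0.11 (adjusted p = 2.09e-16). Among keratins, Krt7 was up by 2.92 ± 0.11, Krt8 by 1.88 ± 0.083, Krt19 by 1.49 ± 0.26 and Krt18 by 0.86 ± 0.10. Differences over the list ran from -2.89 to 6.26, and of its 8 lower members only Sox9 is named here, so the named genes lean towards the rises. Sox9, the factor of duct and progenitor cells, was lower by 1.35 and 0.38 but higher by 0.17 in the deposited values. Genes that normal beta cells keep silent gave 5 higher and 10 lower of 17 (median -0.85, -0.46 with limma background, and 0.23 and 0.61 under the other scalings), 5 and 2 under all 3 scalings, with Nfib, a nuclear factor, down by 3.37 ± 0.31 and Dapp1, an adaptor protein, at least 5.07-fold up. Of 15 chromatin enzymes 5 were higher, 3 lower and 7 not called (median 0.07), and Kdm6b, a histone H3 lysine 27 demethylase that stress also induces, rose by 2.83 ± 0.10, and by 1.40 with limma background.

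Markers of other cells differed between the groups and stand beside the falls above. Endothelial markers were lower in 11 of 14 tested cases, 7 of them under all 3 scalings, with 1 higher and 2 not called (median -2.31, -2.22 at bounds, -0.61 with limma background). Emcn, endomucin of capillaries, stood at 9.76, 9.80 and 9.80 in acinar cells and 5.88, 5.74 and 5.56 at day 30, a difference of -4.06 ± 0.23 (adjusted p = 2.20e-10). Pecam1 (CD31) stood at 8.31, 8.14 and 8.24 and 5.17, 5.20 and 5.12, the latter under the level at which genes reach the detection threshold, and its difference of -3.07 was -0.998 with limma background. Mmrn2, of vessel matrix, was at least 9.27-fold, Sox18, a vessel factor, at least 6.63-fold and Tek, the angiopoietin receptor, at least 6.95-fold lower. Of 4 tested red cell genes 3 fell: Hba-a1 stood at 13.59, 13.56 and 13.58 and 7.63, 7.79 and 7.63, a difference of -5.89 ± 0.72, and Hbb-b1 at 10.82, 10.96 and 10.85 and 5.41, 5.63 and 5.43, with Alas2 given below. Mesenchymal genes were lower in 14 of 22 cases and higher in 1, 1 and 1 under all 3 scalings (median -1.14, -0.36 with limma background, and -0.13 and 0.35 under the other scalings), with Dcn, decorin, at 11.43, 11.42 and 11.48 and 9.66, 9.76 and 9.78, a difference that was not called in the deposited values.

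The summed deposited signal of the 20 endothelial markers on the array, background included, was 2978 to 3535 on acinar and 4449 to 4569 on day 30 arrays, of 5 red cell markers 11392 to 14024 and 598 to 649, and of 26 mesenchymal markers 4859 to 5982 and 6346 to 6442. On the acinar arrays 3 endothelial markers were unmeasured throughout and at day 30 10. Ramp2, Plvap and Esam, which were not lower at day 30, had mean levels of 9.53, 9.50 and 9.59 there, while the vessel genes Sox17, Sox18 and Mmrn2 were measured on no day 30 array. What part such cells had in the genes lower at day 30 was not tested. Macrophage markers gave 4 higher, 7 lower and 10 not called of 21 (median -0.40, -0.04 with limma background, and 0.49 and 0.81 under the other scalings). Cd68 was at least 2.14-fold and C1qa, a complement protein, at least 2.59-fold higher, while Mrc1, the mannose receptor, was lower by 2.29, though by 1.36 and 0.43 under the other scalings, the last not called. Of 18 markers of T, B and NK cells 2 passed the filter, 1 of them called: Cd3e, a chain of the T cell receptor complex, was measured on all 6 arrays and was lower by 0.51 but higher by 0.43 and 0.76 under the other scalings. Of 11 neutrophil markers 2 passed, and S100a8 was at least 2.18-fold lower, a call lost in the deposited values and with limma background. Lcn2 was not called (adjusted p = 0.152) but was higher by 2.35 and 2.07 under the other scalings. In 3 tested glial markers Mbp rose by 0.76 ± 0.12 and Cnp was lower by 1.61, though by 0.58 with median scaling and close to 0 in the deposited values, and the 1 adipocyte marker tested, Lpl, stood at 11.46, 11.52 and 11.41 and 11.61, 11.60 and 11.64 and was higher by 1.28 and 1.73 under the other scalings.

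Interferon-stimulated genes gave 7 higher and 9 lower of 20 (median -0.03, and 0.36 and 0.65 under the other scalings), 7 and 1 under all 3 scalings. Irf1, a factor of the response, stood at 7.95, 8.10 and 7.98 in acinar cells, where 2 arrays measured it, and was higher by 2.60 ± 0.14 at day 30. Rsad2, an antiviral enzyme, rose by 1.45 ± 0.18, whereas Ifitm3, an antiviral membrane protein, fell by 1.54 ± 0.23. Class I antigen presentation gave 7 higher and 2 lower of 11 (median 0.35): Tapbp, which loads peptides, rose by 1.98 ± 0.12 (by 0.64 with limma background). Psmb10, an immunoproteasome subunit, fell by 2.53 ± 0.086, from 13.11, 13.06 and 13.06 to 10.55, 10.52 and 10.56. Class II gave 1 higher, 3 lower and 4 not called of 8 (median -0.22, and 0.87 and 1.23 under the other scalings). The 1 higher member was H2-Aa, a class II chain, up by 0.96 ± 0.22. Differences in this list reached down to -1.30, and its 3 lower members are not named here. Of 4 tested sex-linked genes 3 were lower and 1 not called: Eif2s3y, on the Y chromosome, stood at 9.43, 9.18 and 9.30 in acinar cells and 6.34, 6.41 and 6.24 at day 30 (adjusted p = 0.00185) and Kdm5d, also on Y, was at least 2.67-fold lower, while Xist, expressed from the silenced X of female cells, had 4.56, 5.12 and 4.65 and 5.29, 5.52 and 5.27 (adjusted p = 0.410). The sex of the animals is not given, and its part in the other differences was not tested.

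Some of the largest changes lay outside the lists. Vstm2l, an immunoglobulin-domain protein, stood at 4.48, 4.64 and 4.70 in acinar cells and 13.13, 13.13 and 13.19 at day 30, at least 132-fold higher (adjusted p = 1.73e-15). Acta1, skeletal muscle actin, went from 4.37, 4.39 and 4.37 to 12.49, 12.52 and 12.61, at least 86.8-fold higher, and Bnip5 from 4.45, 4.51 and 4.43 to 12.42, 12.40 and 12.41, at least 79.3-fold. Hmgn3, a nucleosome-binding protein abundant in beta cells, rose by 5.61 ± 0.16, Csrnp1, a nuclear protein, by 4.86 ± 0.10, Tubb6, a tubulin, by 4.68 ± 0.16, Ambp, a precursor of alpha-1-microglobulin, by 4.67 ± 0.11 and Fgd6, an exchange factor, by 4.62 ± 0.20. Among falls measured on all 6 arrays, Chst2, a sulfotransferase, had -3.93 ± 0.26, from 11.69, 11.61 and 11.66 to 7.69, 7.72 and 7.77. Klk8, a kallikrein protease, had -3.89 ± 0.33, Ahcy, which hydrolyses S-adenosylhomocysteine, -3.81 ± 0.11, Bcat2, of branched-chain amino acid breakdown, -3.80 ± 0.10, Cyria -3.73 ± 0.22 and Rarres2, chemerin, -3.71 ± 0.44. Among genes measured on all acinar and no day 30 arrays, P2ry14, a nucleotide sugar receptor, went from 11.06, 11.06 and 11.01 to 7.15, 7.09 and 7.16. Ptprb, a phosphatase of vessels, was at least 13.9-fold lower, Ces1e, a carboxylesterase, at least 12.5-fold, Alas2, of haem synthesis in red cells, at least 11.1-fold, Lrp4, a lipoprotein receptor family member, at least 9.64-fold, Spdef, an ETS factor of secretory cells, at least 9.0-fold and Trim50 at least 8.64-fold. The brightest spots were Rplp1, Ela2, Mt1, Reg1 and Cela3b on acinar arrays and Ela2, Reg1, Try10, Ins2 and Mt1 at day 30, although brightness of different probes does not rank abundance.

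Beside the neighbouring groups, Ins1, Ucn3 and Chgb were higher at day 30 than at day 10, Ghrl and Gip stood far above endogenous beta cells, and several beta cell genes stood below them. Comparisons of each group with acinar cells share the 3 acinar arrays, so the tests here are of day 30 minus the other group. In these, 61.1% of tested genes were called against day 10, 61.8% against day 60 and 74.4% against endogenous beta cells. Tests of day 30 against groups other than acinar cells, here and above, used quantile normalization only. How far their differences depend on the scaling was not tested. The day 60 and 7-month arrays of the same number deviated together from their group means (correlations across genes of 0.86, 0.843 and 0.786, against -0.618 to -0.305 between different numbers), so whether day 60 is a set of samples apart from 7 months was not tested. Ins1 stood at 12.28 ± 0.085 at day 10, 14.16 ± 0.016 at day 30 and 14.70 ± 0.00 in endogenous beta cells, day 30 higher than day 10 by 1.88 ± 0.091 (adjusted p = 1.11e-09) and different from beta cells by -0.54 ± 0.091 (adjusted p = 6.79e-05). Ins2 differed from day 10 by 0.44 ± 0.20 (adjusted p = 0.0735). Ucn3 was higher at day 30 than at day 10 by 3.48 ± 0.15 (adjusted p = 2.22e-10), and against beta cells the difference was -0.26 ± 0.15 (adjusted p = 0.116). Iapp was higher than at day 10 by 2.96 ± 0.20 and Slc30a8 by at least 2.22-fold, and they differed from beta cells by -2.12 ± 0.20 and -2.97 ± 0.13. Chgb was higher than at day 10 by 1.71 ± 0.17 and differed from beta cells by -0.75 ± 0.17. Gjd2 was at least 4.32-fold higher than at day 10 and with -3.13 ± 0.22 against beta cells.

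Ghrl and Gip were already high at day 10, at 13.78 ± 0.059 and 14.02 ± 0.021, and Gip was lower at day 60, at 11.04 ± 0.95, the day 30 level being higher by 2.92 ± 0.40 (adjusted p = 1.44e-05). Ghrl was higher at day 30 than at day 10 by 0.42 ± 0.10 (adjusted p = 0.00205). Other endocrine genes moved both ways between these times. Rfx6 was higher at day 30 by 2.26 ± 0.075, Pax4 by 1.84 ± 0.25 and Neurod1 by 1.53 ± 0.093, while some genes were lower or not called. Neurog3 stood at 7.89 ± 0.03 at day 10 and differed at day 30 by -1.43 ± 0.39 (adjusted p = 0.00504), Pyy by -0.50 ± 0.10 (adjusted p = 6.79e-04) and Abcc8 by -0.35 ± 0.12 (adjusted p = 0.0210). Mafa (adjusted p = 0.761), Nkx6-1 (adjusted p = 0.909), Chga (adjusted p = 0.0658) and Gip (adjusted p = 0.920) were not called. On the acinar side, Tead2 differed at day 30 from day 10 by -2.62 ± 0.16 (adjusted p = 7.43e-09) and Aqp12 by -0.61 ± 0.077 (adjusted p = 6.73e-06), while Serpini2 stood at 7.62 ± 0.088 at day 10 and differed by 0.60 ± 0.26 (adjusted p = 0.0555). Cela3b stood at 14.59 ± 0.038 at day 10 and 14.68 ± 0.022 at day 60. Hspa1a was higher at day 30 than at day 10 by 2.62 ± 0.11 and Fosb by 1.51 ± 0.09, and against day 60, at 13.16 ± 0.064 and 12.69 ± 0.027, they differed by -1.87 ± 0.11 and -0.82 ± 0.09.

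**Figure D4:**
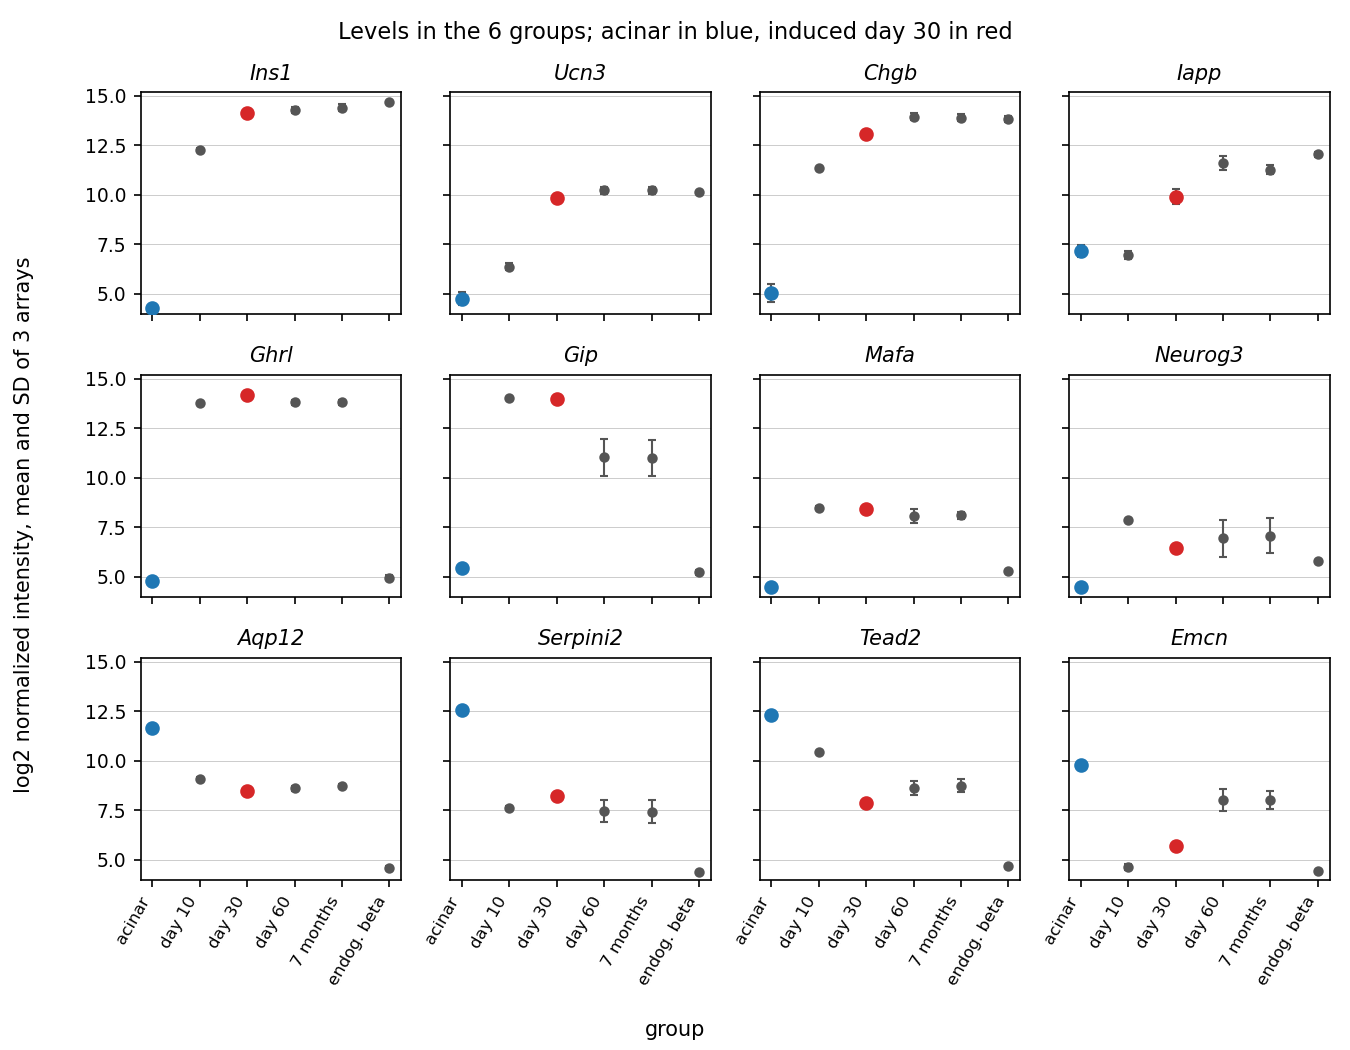
Mean log2 normalized intensity (vertical axis, bars show the SD of 3 arrays) of 12 genes in the 6 groups (horizontal axis), acinar in blue and induced day 30 in red. The means of Ins1, Ucn3, Chgb and Iapp at day 30 lie between those of day 10 and endogenous beta cells, Ghrl, Gip and Mafa stand above the level of beta cells, and Aqp12, Serpini2 and Tead2 stand between acinar and beta cells.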

How the data were processed

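RNA was hybridised to Illumina MouseRef-8 v2.0 beadchips, 1 colour and 1 array a sample. The deposited table holds, for each gene symbol and array, the authors' intensity and its detection p-value, not normalized according to its title. How probes were summarised, and with which software, is not given in the sources used here. A second table of values deposited by the authors proved, when compared, to be the log10 of these signals, within 5.52e-10. Groups came from the sample titles.

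Background was corrected with normexp, taking the negative-control mean and SD from genes whose detection p-values lie on steps of 1 in 798. An offset of 16 was added, arrays were quantile normalized and log2 was taken. Genes detected (p-value below 0.01) on 3 or more of 18 arrays were tested (8942 of 18118) with limma 3.58.1 in R 4.3.3, in a single fit with 12 residual and 2.9 prior degrees of freedom. All adjusted p-values are from limma with Benjamini-Hochberg adjustment over these genes, called under 0.05. A gene counted as measured on an array where it was so detected and brighter than the mean of the negative controls. The limit behind "at least" uses, per array, the level at which genes reach that p-value (5.92 to 6.19 on acinar and 5.34 to 5.39 on day 30 arrays), a rule set after values were seen. The fit was tested on simulated data. The number of arrays limits the precision.

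Symbols were updated through RefSeq (4903) or already current (12036), and 861 did not match. The members, the 43 lists and the tests were chosen with earlier results of these data known. Named were the 4 markers, the 12 largest rises and falls among genes measured on all 6 arrays, the 8 largest limits in each direction, the 5 brightest genes of each group, and 2 or more members of each list with the largest changes or a role in the comparison. A few genes that this rule names are not reported here. Other normalizations, background corrections, filters, fits and left-out replicates were tried for day 30 against acinar cells only. Replicate numbers did not pair the samples: deviations of same-numbered day 30 and acinar arrays correlated at 0.0190, -0.0072 and 0.0524 across genes.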

Additional observations from a re-analysis of the deposited data

Results flagged for a closer look

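The 4 markers, the genes with the largest rises and falls measured on all 6 arrays and those with the largest limits were compared between day 30 and its neighbouring induced groups. Those of them are given here whose change against acinar cells differed by more than 2-fold from that at day 10 or day 60 with an adjusted p under 0.05 (limma, test of the difference). Over all 191 genes named in the text or plotted, 56 differed so from day 10 and 50 from day 60, and the others are not listed here. The share of all tested genes that differed so is not given here, so whether these counts exceed it cannot be told. Values are the day 30 change minus the other on the log2 scale, with quantile normalization only. The changes share the acinar arrays, so each value is the direct difference between the induced groups. Most of these genes were picked for large day 30 differences from acinar cells. That choice favours values further from acinar cells at day 30 than at another time.

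Against day 10, 7 endocrine or beta cell genes of this selection were further up at day 30: Ucn3 by 3.48, Resp18 by 1.94, Ins1 by 1.88, G6pc2 by 1.78, Chgb by 1.71, Pcsk2 by 1.09 and Hmgn3 by 1.09. Bnip5 was further up by 1.84, Ambp by 1.70, the immediate early gene Fosb by 1.51 and the growth arrest gene Gadd45a by 1.03. Tead2 was further down (-2.62), as were Spdef (-1.63), Klk8 (-1.50), Trim50 (-1.38) and Ahcy (-1.16). Spdef and Trim50 were not measured at day 30, so that they were at least 2.79-fold and 2.14-fold lower there than at day 10.

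Against day 60, Gip was further up at day 30 by 2.92, Tubb6 by 2.15, Cldn4 by 1.72 and Fgd6 by 1.12. Hba-a1 was further down (-3.30), as were Rarres2 (-2.51), Emcn (-2.29), Mmrn2 (-1.87), Cyria (-1.07) and P2ry14 (-1.03). Mmrn2 and P2ry14 were not measured at day 30, and Mmrn2 was at least 2.48-fold lower there. Hba-a1, a haemoglobin gene, and the endothelial genes Emcn and Mmrn2 thus stood higher at day 60 than at day 30, while the haemoglobin gene Hbb-b1 was not called (-0.76, adjusted p = 0.339) and the endothelial gene Ramp2 was higher at day 30 (0.39, adjusted p = 0.0419). Their part in the other differences was not tested. Groups of 3 arrays were not searched for single outlying arrays.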

How the results depend on the processing

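Of the calls between day 30 and acinar cells, 7094 in the chosen setting, the total stayed within 1.5 times under every alternative tried, from 6302 with genes detected on all 3 arrays of either group to 8930 without a filter on dim genes. The split depended on scaling: median scaling called 5637 higher and 1596 lower, and the deposited values 7445 and 513. Past 2-fold, limma's inference of negative controls gave 1664 calls against 3436, and it moved the medians of 27 of 40 lists, that of islet transcription factors to 1.20 and that of maturity genes to 0.84. With the replicate number as a block (replicate block) 7146 genes were called. Leaving out 1 array at a time gave 6809 to 6882 called genes, 3394 to 3429 higher and 3411 to 3454 lower, and 3411 to 3442 past 2-fold. Directions that turned with median scaling and in the deposited values, all of them genes lower in the chosen setting, were Gcg (0.23 and 0.70), Pdx1 (0.17 and 0.57), Hes1 (0.32 and 0.68), Cd3e (0.43 and 0.76) and Rab3d (0.44 and 0.90). The deposited values alone turned Isl1 (0.051), Glp1r (0.27), Xbp1 (0.38), Ccn2 (0.40) and Sox9 (0.17). For each of these the cause was not tested; the median of all genes moved by 0.68 and 0.93 with these scalings. Signal over background limits the folds: genes unmeasured in a group have only a lower limit.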
